A study of Mus musculus with 18 samples.

Results

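The genes described here are 10 components of the circadian clock that carry its timing to other genes or feed back on it. They are the proline- and acid-rich basic leucine zipper activators Dbp, Tef and Hlf, the opposing leucine zipper repressor Nfil3, the Period genes Per1, Per2 and Per3, the Rev-erb nuclear receptors Nr1d1 and Nr1d2, and Ciart. They were chosen by name, as the rows of the gene count tables whose Ensembl identifier carries one of these symbols in GENCODE M21 (GRCm38), and all 10 were found among 47729 genes. They were chosen also because Dbp, Tef, Per3 and Nr1d2 had higher values in pregnant libraries, so every comparison of the members with the pregnant libraries is given as a description, with no test.

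The libraries were made from polyadenylated RNA of sorted epithelial cells (by flow cytometry) of the ileum, where the small intestine ends, in female mice. There were 6 libraries of pregnant mice, 6 of pseudopregnant mice and 6 of virgin mice. Pseudopregnancy is the hormonal state that follows a sterile mating, with no embryos. All groups were kept on the same named diets, and the labels give no strain, genotype, age, day of pregnancy, sort marker, batch or hour of tissue collection, and do not say that replicates are separate animals. Differences in the hour of collection therefore cannot be told apart from differences between the groups or between libraries of a group. Where replicates were not separate animals, the p-values measure only the spread between these libraries. Each library held 24946836 to 37285510 counts. Epithelial markers were high in all of them: in CPM, the counts of a gene scaled to a common library size, the summed level of Epcam, Vil1, Cdh1, Krt8 and Krt20 was 11490 to 15290 in pregnant, 9413 to 15590 in pseudopregnant and 11360 to 15210 in virgin libraries. The summed level of 10 leukocyte markers was 14.7 to 41.9 CPM in pregnant, 20.8 to 34.2 in pseudopregnant and 12.1 to 41.1 in virgin libraries, and that of 11 stromal and vessel markers did not exceed 1.79 CPM in pregnant, 1.31 in pseudopregnant and 0.832 in virgin libraries. The part of other cell types in the results below was not tested.

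In the mammalian clock, the activator made of CLOCK and BMAL1 (gene Arntl), or of NPAS2 and BMAL1, binds E-box letters in promoters and switches on the Period, Cryptochrome and Rev-erb genes and Dbp. Period and Cryptochrome proteins then block that activator, while the Rev-erb receptors repress Arntl and Nfil3 through response elements in those genes. DBP, TEF and HLF drive genes through D-box letters, on which NFIL3 competes with them as a repressor. In the intestine this loop is known to set daily rhythms of nutrient transport and lipid handling, and the rhythm is known to be shifted by feeding time.

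The promoters are shown first because the members differ in which of these letters stand next to their start. RefSeq promoters (GRCm38.p6, 250 bases before to 50 bases after a transcription start) were on hand for 9 members, with 11 starts between them. The sequences below are those of the member with most E-boxes (Ciart), an activator with an E-box (Tef, the first of its starts), the one member with D-boxes (Per3) and the one with a Rev-erb response element (Nfil3). They are written 5′ to 3′ on the strand of the gene, and the matched letters are in capitals.
Ciart, chr3:95882179-95882478, minus strand: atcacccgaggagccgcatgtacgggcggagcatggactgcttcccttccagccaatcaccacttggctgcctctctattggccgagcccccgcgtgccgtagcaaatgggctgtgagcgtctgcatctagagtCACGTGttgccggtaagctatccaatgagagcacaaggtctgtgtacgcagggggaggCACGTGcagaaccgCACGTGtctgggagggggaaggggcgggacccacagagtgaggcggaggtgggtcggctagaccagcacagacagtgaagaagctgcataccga
Tef, chr15:81802423-81802722, plus strand: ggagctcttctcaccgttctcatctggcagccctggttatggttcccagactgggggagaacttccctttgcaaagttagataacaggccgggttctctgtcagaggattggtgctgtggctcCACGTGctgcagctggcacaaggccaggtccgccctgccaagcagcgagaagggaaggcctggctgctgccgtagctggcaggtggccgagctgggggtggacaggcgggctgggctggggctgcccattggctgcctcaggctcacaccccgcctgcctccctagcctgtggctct
Per3, chr4:151044616-151044915, minus strand: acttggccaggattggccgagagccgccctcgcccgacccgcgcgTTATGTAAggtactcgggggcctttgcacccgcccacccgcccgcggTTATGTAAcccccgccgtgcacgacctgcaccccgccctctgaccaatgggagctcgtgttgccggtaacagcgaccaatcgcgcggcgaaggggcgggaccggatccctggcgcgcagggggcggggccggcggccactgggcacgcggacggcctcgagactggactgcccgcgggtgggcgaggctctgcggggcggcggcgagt
Nfil3, chr13:52980990-52981289, minus strand: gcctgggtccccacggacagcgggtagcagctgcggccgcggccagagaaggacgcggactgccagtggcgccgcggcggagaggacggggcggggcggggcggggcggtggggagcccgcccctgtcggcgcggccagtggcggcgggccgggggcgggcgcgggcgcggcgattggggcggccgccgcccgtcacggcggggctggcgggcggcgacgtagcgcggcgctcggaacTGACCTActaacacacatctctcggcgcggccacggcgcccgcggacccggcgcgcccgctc

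Ciart held 3 copies of the E-box CACGTG, at -116 to -111, -58 to -53 and -44 to -39 bases from its start. Tef held 1 copy in each of its 2 promoters, at -127 to -122 and at -138 to -133. Per1 held 1 copy, at -166 to -161, in the first of its 2 promoters and none in the second. The E-box was thus present in 3 of the 9 members, and in 8.09% of the 27025 genes and 7.15% of the 32851 promoters of the table, searched on both strands. Per3 held 2 copies of the D-box TTATGTAA, at -205 to -198 and -158 to -151; this spelling or TTACGTAA stood in 1.06% of all promoters. The Rev-erb response element, searched as TAGGTCA or TGGGTCA, was found on the opposite strand of Nfil3 at -12 to -6, and in 6.45% of all promoters. Nr1d1 held the E'-box CACGTT on the opposite strand at -28 to -23 (4.68% of all promoters), and Hlf held the cyclic AMP response element TGACGTCA at -9 to -2 (1.79%). For Nr1d1 and Hlf the bases just after the RefSeq start were not found in a GENCODE transcript. Their positions therefore hold for the RefSeq start only. No match overlapped another. The windows of Dbp and Nr1d2 held none of these letters, which says nothing about sites outside them.

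**Figure D1:**
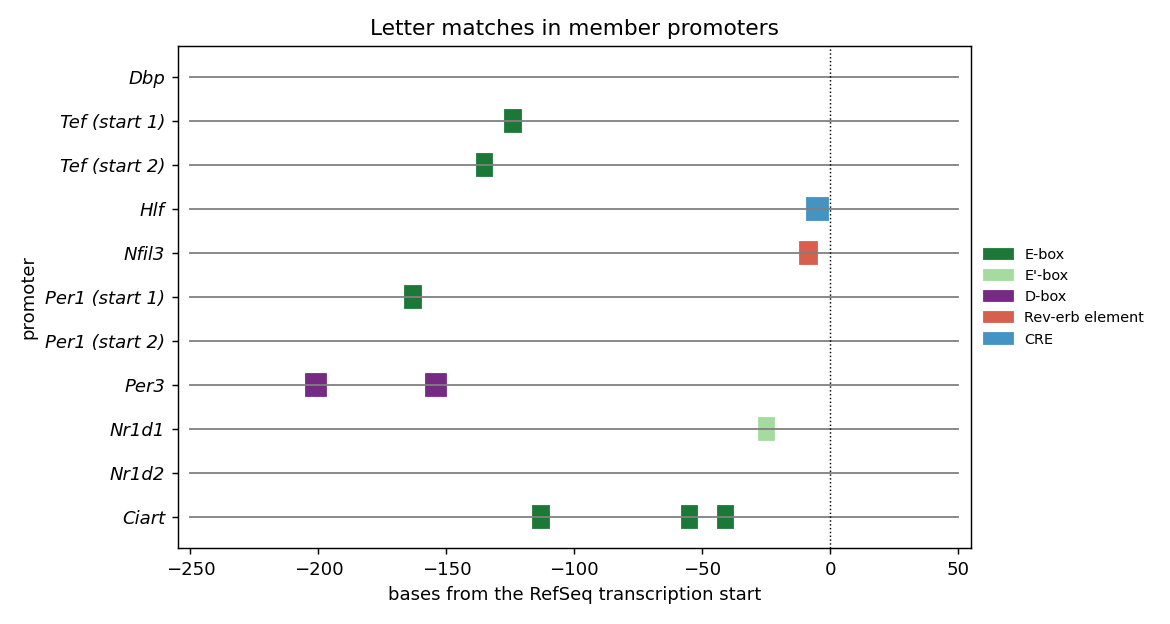
Positions of the searched letters in the 11 RefSeq promoters of 9 members, in bases from the transcription start (dotted line); each box is 1 match on either strand, coloured by motif. The 3 E-boxes of Ciart and the 2 D-boxes of Per3 lie before the start, and Dbp, Nr1d2 and the second Per1 promoter carry no box.

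Compared per kilobase of exon, the members spanned a wide range of levels. Over the 18 libraries the median was 23.6 CPM per kilobase for Nr1d1, 12.2 for Nfil3 and 5.53 for Nr1d2. It was 2.14 for Tef, 1.95 for Dbp, 1.87 for Per1 and 1.86 for Per2, then 0.225 for Per3, 0.0885 for Hlf and 0.0874 for Ciart. The steps between Nr1d1, Nfil3, Nr1d2 and Tef, and between Per2, Per3 and Hlf, held in 18 of 18 libraries each. The order inside the middle group did not: Tef stood above Dbp in 10 of 18 libraries, Dbp above Per1 in 7 and Per1 above Per2 in 7, and Hlf stood above Ciart in 11 of 18. Ciart, a repressor of CLOCK-BMAL1 (chromosome 3, 95878503 to 95882251, minus strand), had only 2 to 14 counts in any library and was the 1 member that did not pass the low-count filter, which left 14675 genes.

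**Figure D2:**
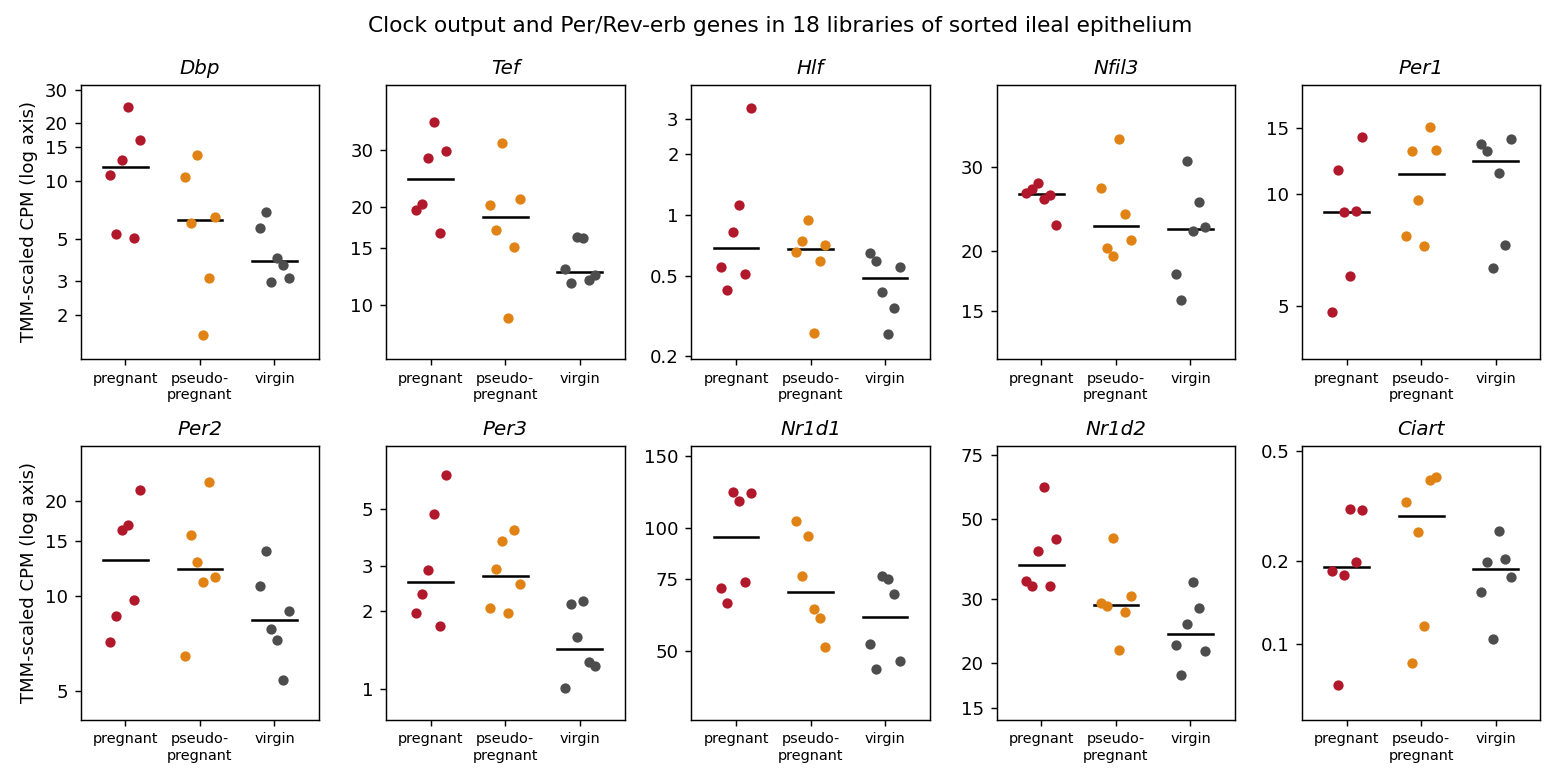
CPM after TMM scaling, on log axes that differ between panels, for the 10 members; each point is 1 library (6 each of pregnant, pseudopregnant and virgin mice, drawn in replicate order) and each line a group median. Tef in pregnant libraries lies above all virgin libraries, Dbp spreads widely in pregnant and pseudopregnant libraries, and Per1 does not stand higher in pregnant libraries.

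Dbp (chromosome 7, 45705088 to 45710203, plus strand), the activator whose transcript is among the most strongly cycling in mouse tissues, had the largest within-group SD of log2 level. By fold range it was not the widest member in every group. Its lowest, median and highest values were 5.03, 11.8 and 24.4 CPM in pregnant libraries, 1.56, 6.25 and 13.6 CPM in pseudopregnant libraries, and 2.98, 3.81 and 6.87 CPM in virgin libraries. The groups overlapped, although 4 of 6 pregnant libraries exceeded the highest virgin library and none fell under the virgin median. Its highest library stood 4.86-fold above the lowest among pregnant libraries and 8.68-fold among pseudopregnant ones, against 2.31-fold among virgin ones. Within groups its log2 level had an SD of 0.879, larger than that of 97.8% of the 1468 genes within 0.5 log2 units of its level. The log2 fold change was 1.51 (SE 0.44) for pregnant against virgin libraries and 0.86 (SE 0.43) for pregnant against pseudopregnant libraries, the second being 0.55 without pregnant replicate 4. Pseudopregnant against virgin libraries gave 0.65 (SE 0.44), which did not pass (adjusted p = 0.525, edgeR's quasi-likelihood test), and moved to 0.34 without pseudopregnant replicate 3.

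The other activators had the same order of group medians. Tef (chromosome 15, 81802421 to 81826863, plus strand), a related activator with the E-boxes shown above, had a lowest, median and highest value of 16.6, 24.4 and 36.6 CPM in pregnant libraries, 9.09, 18.6 and 31.5 CPM in pseudopregnant libraries and 11.7, 12.6 and 16.2 CPM in virgin libraries. It was the 1 member whose pregnant libraries did not overlap the virgin ones, with the lowest pregnant library at 16.6 CPM and the highest virgin library at 16.2 CPM; 0.0409% of all genes tested did the same in that direction. Since the members were picked on this contrast, nothing is read from that share. Its log2 fold change was 0.90 (SE 0.23) for pregnant against virgin and 0.41 (SE 0.23) for pregnant against pseudopregnant libraries, or 0.27 without pseudopregnant replicate 4. Between pseudopregnant and virgin libraries it was 0.49 (SE 0.23, adjusted p = 0.515), and 0.29 without pseudopregnant replicate 3.

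Hlf (chromosome 11, 90336536 to 90390895, minus strand), the third activator of this family, was barely detected, with 8 to 122 counts in a library. Its lowest, median and highest values were 0.423, 0.685 and 3.39 CPM in pregnant, 0.261, 0.680 and 0.944 CPM in pseudopregnant and 0.258, 0.485 and 0.646 CPM in virgin libraries. The highest value belonged to pregnant replicate 6 and the groups overlapped. With that library the log2 fold change was 1.31 (SE 0.46) for pregnant against virgin and 0.86 (SE 0.44) for pregnant against pseudopregnant libraries; without it these were 0.57 and 0.11. Pseudopregnant against virgin libraries gave 0.46 (SE 0.49, adjusted p = 0.641).

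Nfil3 (chromosome 13, 52967209 to 52981073, minus strand), the repressor that opposes the 3 activators and that in mouse intestinal epithelium is known to govern lipid uptake, had the smallest pregnant against virgin log2 fold change of the 9 members in size. Its lowest, median and highest values were 22.7, 26.4 and 27.8 CPM in pregnant libraries, 19.6, 22.6 and 34.4 CPM in pseudopregnant libraries and 15.8, 22.3 and 30.9 CPM in virgin libraries. The pregnant libraries lay close together, inside the range of the virgin ones. All 6 stood above the virgin median and above the pseudopregnant median. The log2 fold change was 0.21 (SE 0.16) for pregnant against virgin, 0.09 (SE 0.16) for pregnant against pseudopregnant and 0.12 (SE 0.16, adjusted p = 0.697) for pseudopregnant against virgin libraries, the last being -0.00092 without pseudopregnant replicate 4.

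The 3 Period genes, whose proteins repress CLOCK-BMAL1, did not share 1 pattern. Per3 (chromosome 4, 151003652 to 151044665, minus strand) had a lowest, median and highest value of 1.75, 2.61 and 6.74 CPM in pregnant libraries, 1.97, 2.74 and 4.13 CPM in pseudopregnant libraries and 1.02, 1.44 and 2.19 CPM in virgin libraries. In both the pregnant and the pseudopregnant group, 4 of 6 libraries lay above the highest virgin library and all 6 above the virgin median. The log2 fold change was 1.13 (SE 0.32) for pregnant against virgin and 0.24 (SE 0.31) for pregnant against pseudopregnant libraries, and the second of these was -0.07 without pregnant replicate 6. For pseudopregnant against virgin libraries it was 0.89 (SE 0.32). That was the largest value of any member in this comparison, and it did not pass (adjusted p = 0.515).

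Per2 (chromosome 1, 91415982 to 91459324, minus strand) had a lowest, median and highest value of 7.15, 13.0 and 21.6 CPM in pregnant libraries, 6.46, 12.2 and 23.0 CPM in pseudopregnant libraries and 5.42, 8.42 and 13.9 CPM in virgin libraries. The ranges overlapped, with 3 pregnant and 2 pseudopregnant libraries above the highest virgin one. Its log2 fold change was 0.57 (SE 0.30) for pregnant against virgin and -0.0042 (SE 0.30) for pregnant against pseudopregnant libraries. Pseudopregnant against virgin libraries gave 0.58 (SE 0.30, adjusted p = 0.515), and 0.35 without pseudopregnant replicate 5.

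Per1 (chromosome 11, 69095217 to 69109960, plus strand), the Period gene known to respond quickly to hormonal and stress signals, stood apart from the other members. Its lowest, median and highest values were 4.81, 8.98 and 14.2 CPM in pregnant libraries, 7.27, 11.3 and 15.1 CPM in pseudopregnant libraries and 6.34, 12.2 and 14.0 CPM in virgin libraries. Only 1 of 6 pregnant libraries lay above the virgin median. It was the 1 tested member with a negative log2 fold change for pregnant against virgin libraries, -0.27 (SE 0.26), and it stood at -0.27 (SE 0.26) against pseudopregnant libraries as well. Without pregnant replicate 6 both values were -0.44. Without pregnant replicate 1 they were -0.14 against virgin and -0.13 against pseudopregnant libraries. For pseudopregnant against virgin libraries the log2 fold change was 0.0020 (SE 0.26, adjusted p = 0.998).

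The Rev-erb receptors Nr1d1 and Nr1d2 are repressors that act through their own response element. Nr1d1 (chromosome 11, 98767932 to 98775333, minus strand), which encodes REV-ERB alpha, had a lowest, median and highest value of 65.6, 95.0 and 122 CPM in pregnant libraries, 51.1, 69.8 and 104 CPM in pseudopregnant libraries and 45.4, 60.5 and 76.3 CPM in virgin libraries. The pregnant libraries fell into a higher and a lower set: replicates 3, 4 and 6 stood at 122, 116 and 122 CPM, and replicates 1, 2 and 5 at 71.4, 65.6 and 73.8 CPM, inside the virgin range. The log2 fold change was 0.65 (SE 0.21) for pregnant against virgin and 0.34 (SE 0.21) for pregnant against pseudopregnant libraries. Set against virgin libraries, the pseudopregnant ones gave 0.30 (SE 0.21, adjusted p = 0.526), and 0.17 without pseudopregnant replicate 1.

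Nr1d2 (chromosome 14, 18204054 to 18239127, minus strand), which encodes REV-ERB beta, had a lowest, median and highest value of 32.7, 37.3 and 61.3 CPM in pregnant libraries, 21.7, 29.0 and 44.3 CPM in pseudopregnant libraries and 18.6, 24.0 and 33.5 CPM in virgin libraries. Every pregnant library exceeded both the virgin and the pseudopregnant median, and 4 of 6 exceeded the highest virgin library. Its log2 fold change was 0.71 (SE 0.19) for pregnant against virgin, 0.43 (SE 0.18) for pregnant against pseudopregnant and 0.28 (SE 0.18, adjusted p = 0.520) for pseudopregnant against virgin libraries. Without pregnant replicate 4 the second of these was 0.28, and without pseudopregnant replicate 3 the third was 0.14. Ciart, with its 3 E-boxes, had a lowest, median and highest value of 0.0706, 0.191 and 0.310 CPM in pregnant, 0.0854, 0.291 and 0.404 CPM in pseudopregnant and 0.104, 0.186 and 0.258 CPM in virgin libraries, from 40, 49 and 34 counts in all. Differences in Ciart were not detectable at this depth, and its log2 fold change without the low-count filter was 0.23 (SE 0.42) for pregnant and 0.49 (SE 0.41) for pseudopregnant against virgin libraries.

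Taking the 9 members past the filter, 8 had a positive log2 fold change for pregnant against virgin libraries, with a median of 0.71, where 48.5% of all 14675 genes were positive with a median of -0.0076. Of the 9 members, 6 (Dbp, Tef, Nfil3, Per3, Nr1d1 and Nr1d2) exceeded the virgin median in each of the 6 pregnant libraries, which 4.35% of all genes did; the rule used this contrast, so nothing is read from it. For pregnant against pseudopregnant libraries 7 of 9 members were positive, with a median of 0.34, or 0.13 without pregnant replicate 6 and 0.19 with the villus-minus-crypt score described below in the fit. No member was without overlap (0% of all genes) and 2, Nfil3 and Nr1d2, had all 6 pregnant libraries above the pseudopregnant median (3.78% of all genes).

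The comparison that the choice of members did not draw on directly is that of pseudopregnant with virgin libraries, although the virgin libraries served in both. Here 9 of 9 members were positive, counting Per1 at 0.0020, whose sign changed under several alternatives, with a median log2 fold change of 0.46, where 50.6% of all genes were positive with a median of 0.0045. The median was 0.29 without pseudopregnant replicate 3 and 0.23 with the length slope of each library in the fit. By edgeR's quasi-likelihood test 0 of 9 members passed an adjusted p of 0.05, and 0 of 14675 genes did (0%). DESeq2 and limma-voom called 0 genes too. Without adjustment, 2 members, Tef and Per3, were under 0.05 and higher in pseudopregnant libraries by edgeR, as were 7.36% of all genes. Both are among the genes picked for higher values in pregnant libraries. The virgin libraries are the baseline here too, so that choice favours a positive difference for them. DESeq2 also had 2 members under an unadjusted 0.05 and limma-voom had 1. With the length slope in the edgeR fit 0 of 9 members were, and 315 of 14675 genes in either direction, against 1375 genes without the slope. No member was without overlap (0.0341% of all genes), and 1 of 9, Per3, had all 6 pseudopregnant libraries above the virgin median, against 4.31% of all genes.

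**Figure D3:**
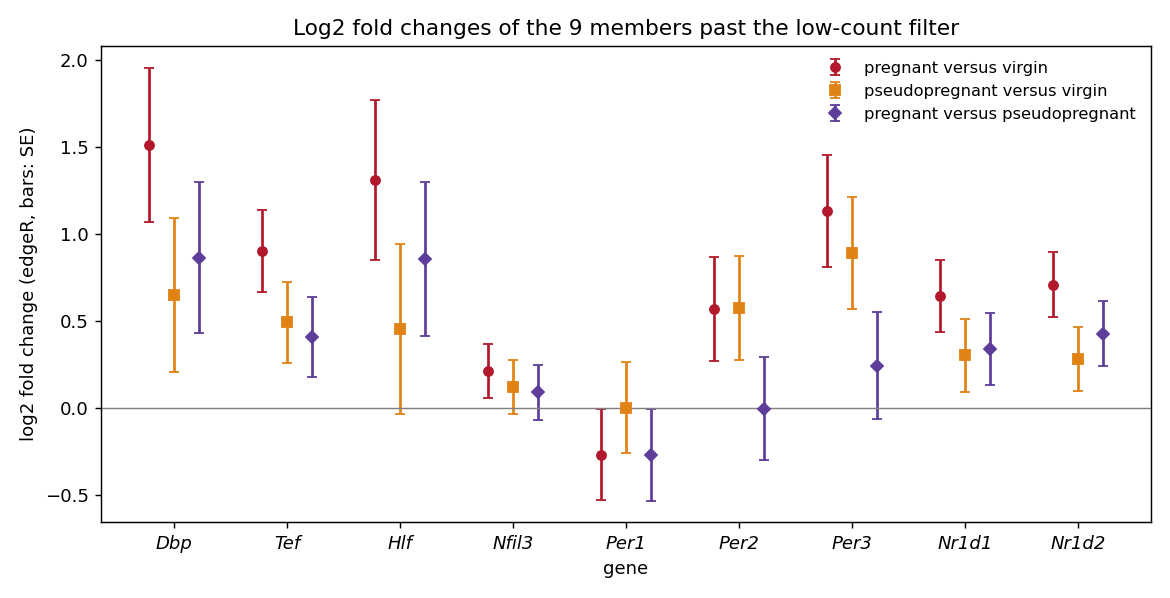
Log2 fold changes with their SE from the edgeR fit, for the 9 members past the low-count filter and the 3 comparisons, which share libraries; the grey line marks 0. Pregnant against virgin values run from -0.27 for Per1 to 1.51 for Dbp, and pseudopregnant against virgin values from 0.0020 for Per1 to 0.89 for Per3.

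Some features of the libraries moved with these values. A villus-minus-crypt score was taken for each library from log2 levels centred gene by gene across the 18 libraries. It is the mean centred level of 15 absorptive enterocyte genes minus that of 16 proliferation genes. The score is thus relative to the average library, and its sign does not say which set of genes was more abundant. It had a median of 0.095 in pregnant, -0.36 in pseudopregnant and -0.48 in virgin libraries, with ranges that overlapped throughout. Over the 18 libraries, with group means removed, the score had a Pearson r of 0.78 with Nr1d1 (Spearman 0.76, and 0.78 without the 2 libraries farthest from the median score), 0.71 with Tef (Spearman 0.75, 0.80) and 0.51 with Dbp (Spearman 0.62, 0.79). For Per1 it was -0.32 (Spearman -0.18, -0.18) and for Nfil3 0.16 (Spearman -0.10, -0.26). With the score as a covariate the pregnant against virgin log2 fold change was 0.99 for Dbp, 0.65 for Tef, 0.41 for Nr1d1, 0.56 for Nr1d2 and 1.01 for Per3, and that of pseudopregnant against virgin libraries was 0.31 for Dbp, 0.39 for Tef and 0.87 for Per3. In bulk samples, fewer cells of a type and less RNA per cell cannot be told apart.

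**Figure D4:**
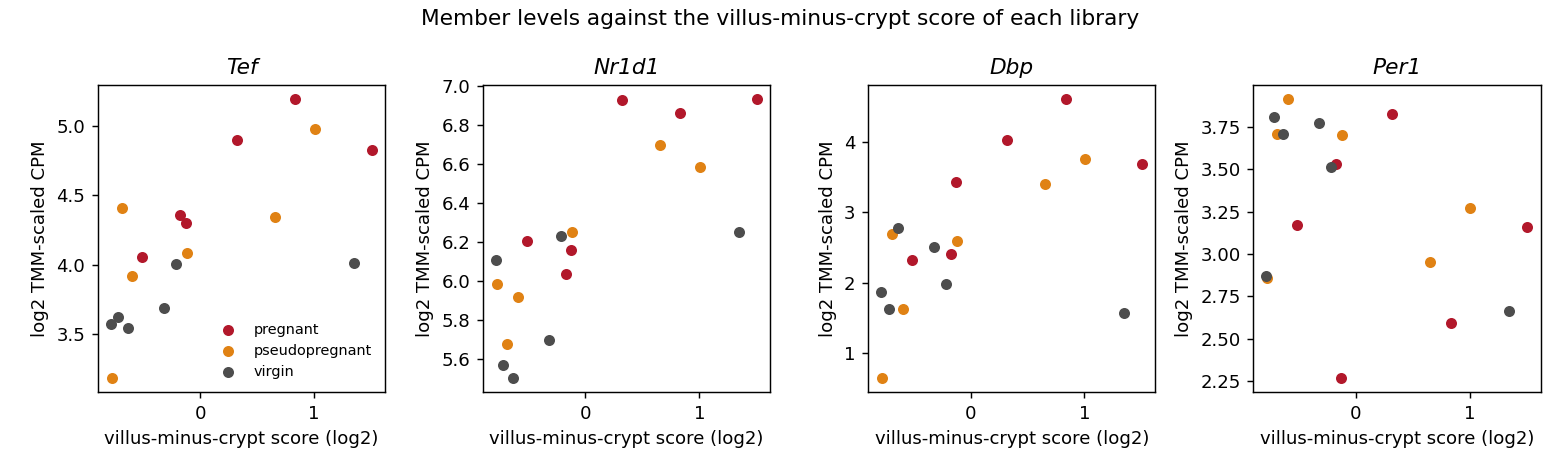
Log2 CPM of Tef, Nr1d1, Dbp and Per1 against the villus-minus-crypt score of each library (log2 units); each point is 1 of 18 libraries, coloured by group. Tef and Nr1d1 stand higher in libraries with a higher score (within-group r of 0.71 and 0.78), and Per1 does not (-0.32).

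A length slope was also taken for each library, from log2 levels set as differences from each gene's mean over the 18 libraries. It is the slope of these differences on log2 exon length, relative to the average library, and its ranges overlapped between groups. Its median was 0.023 in pregnant, 0.099 in pseudopregnant and -0.054 in virgin libraries. With this slope as a covariate the pregnant against virgin log2 fold change was 1.78 for Dbp, 0.94 for Per3 and 0.32 for Per2. For pseudopregnant against virgin libraries it was 0.61 for Per3, 0.20 for Per2 and -0.11 for Per1. The part of either measure in these differences was not tested.

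Overlapping genes limit how 2 members were counted. Dbp shares 539 exon bases with Sphk2, a sphingosine kinase gene on the opposite strand, which had a median of 2564 counts where Dbp had 182. Nr1d1 shares 263 exon bases with Thra, the thyroid hormone receptor alpha gene on the opposite strand, with medians of 3121 counts for Thra and 2266 for Nr1d1. The library kit keeps strand, but how strand was set in the counting is not given in the sources used here. The levels of both members are therefore uncertain. The pregnant against virgin log2 fold change was 0.28 (SE 0.13) for Sphk2 and 0.13 (SE 0.12) for Thra, against 1.51 for Dbp and 0.65 for Nr1d1. Within groups Sphk2 had an r of 0.52 with Dbp, and Thra one of 0.61 with Nr1d1.

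Within groups, most members rose and fell with the mean of the other members, while Per1 hardly did and Nfil3 went the opposite way. The choice of members drew on levels in pregnant libraries, and those libraries also enter the correlations. These correlations are over 18 libraries after removal of group means, share the scaling of each library, and are given as a description. Among 45 pairs of members 35 were positive, with a median r of 0.36. The share of positive pairs among other genes was not taken, so nothing is read from this count. Each member was also set against the mean of the other members. Per3 had the highest r, 0.79, followed by Tef (0.75), Hlf (0.72), Nr1d2 (0.66), Dbp (0.61), Nr1d1 (0.51), Ciart (0.47) and Per2 (0.43). Hlf and Ciart had few counts, so counting error is part of their values. Per1 stood at 0.086, and at -0.11 without pregnant replicate 6. Nfil3 was the 1 negative member, at -0.54, and it was negative without any single library (-0.58 to -0.36).

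Close pairs were found both across and within roles. Tef and Nr1d2 had an r of 0.85 (Spearman 0.87, and 0.80 without the 2 libraries farthest from the median of Tef). Dbp and Tef had an r of 0.81 (Spearman 0.69, 0.66). Nr1d1 and Nr1d2 had an r of 0.71 (Spearman 0.63, 0.79), Per2 and Per3 one of 0.69 (Spearman 0.68, 0.65), and Per1 and Per2 one of 0.60 (Spearman 0.54, 0.54), while Per1 and Per3 stood at 0.33 (Spearman 0.29, 0.28). Across roles, Hlf and Per3 had an r of 0.64 (Spearman 0.49, 0.37), Tef and Nr1d1 one of 0.63 (Spearman 0.63, 0.67) and Dbp and Nr1d2 one of 0.61 (Spearman 0.51, 0.41). The lowest r of any pair was that of Nfil3 and Per1, -0.62 (Spearman -0.51, -0.45).

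Against the activator side of the clock the signs split. Arntl, the gene of BMAL1 and a known target of Rev-erb repression, had an r of -0.75 with Dbp (Spearman -0.73, -0.66), and of 0.67 with Nfil3 (Spearman 0.62, 0.49). With the Rev-erb genes themselves it had an r of 0.012 for Nr1d1 (Spearman 0.094, 0.058) and -0.26 for Nr1d2 (Spearman -0.21, -0.038). Npas2, whose protein can take the place of CLOCK, had an r of 0.70 with Nfil3 (Spearman 0.51, 0.45) and 0.55 with Nr1d1 (Spearman 0.71, 0.49). Clock ranged from -0.29 with Ciart to 0.58 with Per2. Chosen after its values were seen, the Cryptochrome gene Cry2 had an r of 0.77 with Nr1d2 (Spearman 0.78). Its r was 0.73 with Nr1d1 (Spearman 0.72) and 0.71 with Tef (Spearman 0.74), and lowest with Per1, at -0.21. In pseudopregnant replicate 4, Arntl stood at 40.0 CPM and Nfil3 at 34.4 CPM, each the highest of 18 libraries, and Dbp at 1.56 CPM and Tef at 9.09 CPM, each the lowest of 18. In pregnant replicate 4, Dbp, Tef and Nr1d2 were at their highest, at 24.4, 36.6 and 61.3 CPM, and Arntl stood at 21.5 CPM. Both libraries were chosen after their values were seen, and other libraries differed. In virgin replicate 2, Arntl (20.5 CPM) and Nr1d2 (18.6 CPM) were each the lowest of 18 libraries. Dbp in that library, at 6.87 CPM, was the highest of the virgin group.

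**Figure D5:**
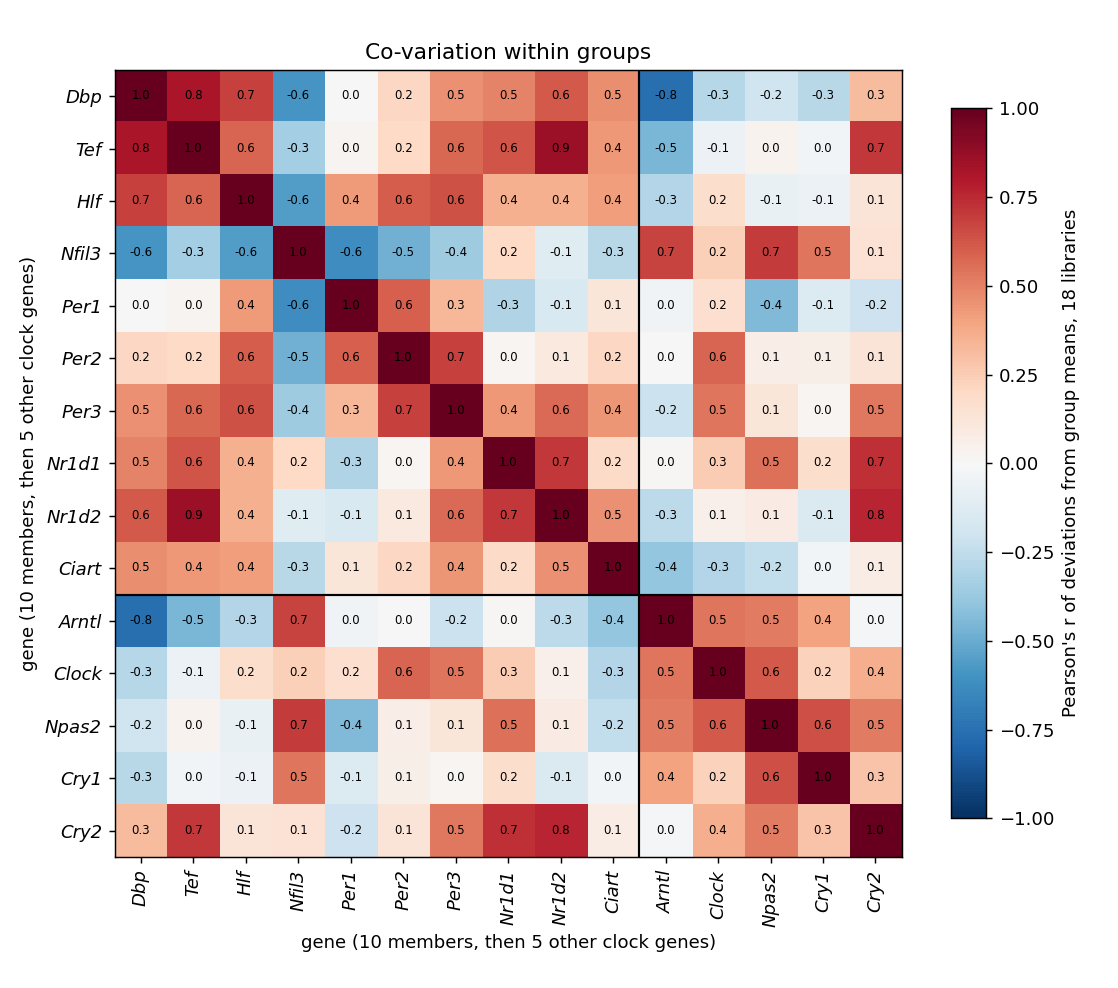
Pearson's r between the log2 levels of the 10 members and 5 other clock genes over 18 libraries after removal of group means; red is positive, blue negative, and the black lines part the members from the other genes. Dbp, Tef, Hlf, Per3, Nr1d1 and Nr1d2 form a positive block, and Nfil3 is negative with Dbp, Hlf and Per1 and positive with Arntl and Npas2. Cry2, outside the members, is also positive with Tef, Per3, Nr1d1 and Nr1d2.

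An output score was taken for each library as the mean of the scaled within-group deviations of the 9 members other than Nfil3. Hlf and Ciart, which had few counts, weighed as much in it as the other members. The score was highest in pregnant replicate 6 (1.15), pregnant replicate 4 (0.74) and pseudopregnant replicate 3 (0.70). Its lowest values were in pseudopregnant replicate 4 (-1.10) and pregnant replicates 1 and 2 (-0.74 each). The virgin libraries lay between -0.24 and 0.30. Each value is relative to the mean of its own group, so the score does not rank levels across groups. Without removal of group means, pregnant replicates 1 and 2 stood at -0.29 each, and the virgin libraries between -0.78 and -0.24. Among 10496 named genes with a mean of at least 2 CPM, the one most like the score was Bco1, which splits beta-carotene to retinal, with an r of 0.84 (Spearman 0.81). Next were Cyp2u1 (0.78) and Cyp27a1 (0.77), both cytochromes P450, Lrat (0.76), which esterifies retinol, Ilk (0.73), Cndp1 (0.72), Akr1c14 (0.71) and Smad2 (0.71). The most opposite genes were Cacfd1 (-0.75), Gabpb1 (-0.74), Elovl7 (-0.72), which elongates fatty acids, Sh3bp5l (-0.71), Wdr34 (-0.70), the cell cycle factor E2f2 (-0.68), Smarcd2 (-0.68) and Cnp (-0.68). These were the 8 highest and 8 lowest of many genes, so such values are high in part by selection. The output score also had an r of 0.63 with the percentage of counts from mitochondrial genes (Spearman 0.57, 0.52) and of 0.43 with the villus-minus-crypt score (Spearman 0.52, 0.61).

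The rest of the pathway was described from lists. Of 9 other clock loop genes, among them the activators and Cryptochromes, 7 passed the filter, and 5 of 7 were positive for pregnant against virgin libraries (median log2 fold change 0.17) and 7 of 7 for pseudopregnant against virgin libraries (median 0.18). Over all the lists below and this one, 0 of 46 genes tested passed an adjusted p of 0.05 by edgeR, DESeq2 or limma-voom in either comparison. Unadjusted, 5 were under 0.05 by edgeR for pregnant and 5 for pseudopregnant against virgin libraries, where 3.68% and 9.37% of all 14675 genes were. DESeq2 gave 6 and 5, and limma-voom 4 and 3. Arntl stood at -0.19 (SE 0.15) for pregnant and 0.11 (SE 0.15) for pseudopregnant against virgin libraries, and Clock at 0.17 (SE 0.16) and 0.42 (SE 0.16). Npas2 stood at 0.020 (SE 0.14) and 0.095 (SE 0.14), Cry1 at -0.016 (SE 0.19) and 0.058 (SE 0.19), and Bhlhe40, a repressor at E-boxes, at 0.20 (SE 0.13) and 0.18 (SE 0.13). Chosen after their values were seen, Cry2 stood at 0.47 (SE 0.21) and 0.27 (SE 0.21), and Rora, at a mean of 0.397 CPM, at 0.42 (SE 0.29) and 0.66 (SE 0.29). Of 6 clock kinase and F-box genes, 4 of 6 were positive in each comparison with virgin libraries (medians 0.14 for pregnant and 0.055 for pseudopregnant), with Csnk1d, a kinase that marks Period proteins for decay, at 0.098 (SE 0.088) and 0.10 (SE 0.088).

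Genes downstream of the members were counted in the same way. Of 6 genes reported as targets of DBP, TEF and HLF, 5 of 6 were positive for pregnant and 4 of 6 for pseudopregnant against virgin libraries (medians 0.17 and 0.15). Slc15a1, the peptide transporter, stood at 0.55 (SE 0.22) and 0.20 (SE 0.22), Abcb1a, a drug efflux pump, at 0.51 (SE 0.25) and 0.27 (SE 0.25), and Por, the electron donor of cytochromes P450, at -0.033 (SE 0.17) and -0.27 (SE 0.17). Slc15a1 is also 1 of the enterocyte genes of the villus-minus-crypt score. Of 4 genes reported to depend on Nfil3 in this epithelium, 3 passed the filter, with medians of 0.0045 for pregnant and 0.019 for pseudopregnant libraries; the fatty acid transporter Cd36 stood at -0.0079 (SE 0.37) and 0.019 (SE 0.37). Of 7 other genes known to cycle in many mouse tissues, 3 of 7 were positive in each comparison with virgin libraries (medians -0.042 and -0.014), with Nampt, which makes a precursor of NAD, at 0.10 (SE 0.14) and 0.046 (SE 0.14).

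Lists that respond to hormones and handling, 2 kinds of signal to which Per1 is also known to answer, had negative medians. Of 8 glucocorticoid-responsive genes tested, 1 of 8 was positive for pregnant and 0 of 8 for pseudopregnant against virgin libraries (medians -0.25 and -0.24). Of 10 immediate early and heat shock genes, which are induced within minutes by handling or dissociation of tissue, 0 of 10 were positive in either comparison (medians -0.28 and -0.25), with Fos, the most abundant, at -0.14 (SE 0.12) in both. Chosen after their values were seen, Fkbp5 of the first list stood at -0.65 (SE 0.34) for pregnant and -0.66 (SE 0.34) for pseudopregnant against virgin libraries, and Nr4a1 of the second at -0.66 (SE 0.23) and -0.50 (SE 0.23). In virgin libraries Fkbp5 spread widely, from 6.59 CPM in replicate 3 to 51.0 CPM in replicate 6, with a median of 19.1 CPM. The part of hormones or of handling in the level of Per1 was not tested.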

How the data were processed

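Gene counts for 18 libraries were deposited by the authors as whole-number counts per Ensembl gene. Per the submitters' processing notes, reads were handled with HISAT2 2.0.4, FastQC 0.11.5, DESeq2 1.24.0 and featureCounts (Subread 2.0.0), on GRCm38; how strand was set, and which annotation release served, is not given in the sources used here. Of 47729 genes, 47310 matched GENCODE M21. The other 419 took up to 0.029% of the counts in a library.

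The members and lists were chosen with earlier results of these data known. One edgeR 4.0.16 fit (R 4.3.3) covered all 18 libraries with 1 mean per group: TMM scaling, filterByExpr over the 3 groups (14675 genes) and the quasi-likelihood test. P-values were adjusted by Benjamini-Hochberg over all genes at 0.05. The edgeR steps were tested on simulated data. For pseudopregnant against virgin libraries, 69% of 100 genes changed by 1 log2 unit were recovered, and 99% of 100 changed by 2. A change of 1 log2 unit can thus go uncalled, and all members' values in that comparison were smaller. Standard errors are the log2 fold change divided by the root of F. CPM are TMM-scaled; correlations used log2 CPM with a prior count of 2, minus group means. DESeq2 1.42.0 and limma-voom (limma 3.58.1) were run as alternatives, as were other scalings and filters, covariates, a replicate block and each library left out. The length slope used 4723 genes with a mean log2 CPM of at least 5.

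All 10 members are named. Of each list up to 4 genes of highest mean CPM could be named, with Arntl, Npas2 and Cry1 always, and the 8 genes most like and most unlike the output score; Cry2, Rora, Fkbp5 and Nr4a1 were named after their values were seen. A further gene of the clock list is not reported here. Counting error is small beside the spread between libraries, except for Hlf and Ciart. No 2 replicates agreed within sampling noise, with a chi-square over its degrees of freedom of 36.2 to 458. Promoters came from a RefSeq table, which held 9 members.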

Additional observations from a re-analysis of the deposited data

Results flagged for a closer look

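Hlf in pregnant replicate 6 stood at 3.39 CPM, where the other 5 pregnant libraries lay between 0.423 and 1.13 CPM. The gap to the next library was 0.763 of the range of the group, above the 95% critical value of Dixon's gap test for 6 values. It was 1 of 30 sets of values looked at in this way (10 members in 3 groups), of which chance alone would mark about 1 in 20. The same library had the highest Per3 of all 18 libraries, 6.74 CPM.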

How the results depend on the processing

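The median log2 fold change of the members kept its sign in all 3 comparisons under every alternative run, and no member was called for pseudopregnant against virgin libraries under any of them. Leaving out 1 library gave medians of 0.57 to 0.81 for pregnant against virgin, 0.29 to 0.63 for pseudopregnant against virgin and 0.13 to 0.43 for pregnant against pseudopregnant libraries. The median within-group r of a member with the others was 0.50 to 0.62. Same-numbered libraries were not treated as pairs: of 18 same-numbered pairs, 10 had a correlation of deviations over 0.1, and in 6 it was the best match, among them all 3 pairs of replicate 3. With the replicate block the medians were 0.70 for pregnant against virgin, 0.47 for pseudopregnant against virgin and 0.33 for pregnant against pseudopregnant libraries, and 0 members were called.

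Signs changed for values near 0. For pseudopregnant against virgin libraries Per1 was -0.033 with upper-quartile scaling, -0.0028 with no low-count filter, -0.0029 with a filter of at least 1 CPM in 6 libraries, -0.028 with the replicate block, -0.11 with the length slope as covariate, and between -0.11 (without virgin replicate 3) and 0.097 with 1 library left out. Nfil3 was between -0.00092 and 0.23 with 1 library left out. The cause was not tested. Hlf and Ciart are limited by depth.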
